A study of Homo sapiens with 4 samples.

Results

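The genes of the exocyst, a protein complex that tethers secretory vesicles to the plasma membrane, were examined as hosts of circular RNA in radiation-resistant MDA-MB-468 cells with and without a stable knockdown of HNRNPL. A circle was counted as an exocyst circle when its gene annotation named EXOC1, EXOC2, EXOC3, EXOC4, EXOC5, EXOC6, EXOC6B, EXOC7 or EXOC8 exactly and its type was not antisense. By this rule 370 of 211599 circles were exocyst circles, and no circle named more than 1 of the 9 genes. The circles were selected on gene name and circle type, and no level or fold change entered the rule. A circle is listed only where the caller found reads, and the 9 genes were chosen with earlier results of the knockdown comparison known, so the values below are not independent evidence for the set. MDA-MB-468 is an established human breast cancer line, and HNRNPL is an RNA-binding protein that regulates splicing. All 4 libraries came from a derivative that had received a total of 50 Gy of radiation. A control short hairpin RNA was carried by 2 libraries, whose genotype is given as WT, and a stable hairpin against HNRNPL by the other 2, and the replicates are called biological; the labels name 1 hairpin, and a second was not analysed here. None of the 211599 circles named HNRNPL, so the knockdown rests on the labels. The question behind the comparison was which circular RNAs depend on HNRNPL.

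A circular RNA forms when a splice donor is joined backwards to an acceptor that lies upstream of it, which closes the exons between them into a ring without ends. The exocyst holds vesicles from the Golgi and from recycling endosomes at the membrane until SNARE proteins fuse them. It is built from a subcomplex of EXOC1, EXOC2, EXOC3 and EXOC4 and another of EXOC5, EXOC6 or its paralog EXOC6B, EXOC7 and EXOC8. Small GTPases and membrane lipids recruit it: EXOC6 and EXOC6B bind RAB11 on recycling vesicles, EXOC2 and EXOC8 bind RALA and RALB, and EXOC1 and EXOC7 bind phosphoinositides. In breast cancer cells the complex is known for carrying matrix metalloproteinase to invasive protrusions. The libraries measured circles, and linear mRNA and protein of these genes were not analysed here.

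Of the 370 exocyst circles, 333 had at least 1 count and together held 2161 of 1702290 counts. The caller typed 200 of the 370 as exon circles and 170 as intron circles. A further 57 antisense circles of these genes, with 171 counts, were left out. Library totals ran from 282737 to 556578 counts, and a count of 0 allows up to 3 counts, which is between 0.539 and 1.06 per 100000. The reads carried no molecular identifiers, so intervals and floors cover counting error only. Control replicate 1 stood apart from the other libraries in its content. Intron circles took 19.7% of its counts over all genes, against 9.93% to 10.6% in the others, and 51.4% of its exocyst counts, against 12.7% to 18.1%.

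Exocyst circles made up a larger part of the circular RNA in both knockdown libraries. They held 107 and 93.4 counts per 100000 counts of the library in the controls against 165 and 171 in the knockdowns, with replicate 1 first. The groups did not overlap. The mean was 100.3 ± 9.67 (SD, n = 2) in the controls and 1.68 times as high, 168 ± 4.58 (SD, n = 2), in the knockdowns (exact two-sided permutation test, p = 0.333, the smallest that 2 against 2 allows). Exon circles alone held 52.1 and 76.5 per 100000 in the controls against 144 and 149 in the knockdowns, a ratio of 2.27. Intron circles of the exocyst overlapped between groups, at 55.0 and 16.9 per 100000 in the controls against 20.9 and 22.8 in the knockdowns. Much of the difference lay in EXOC6. Without it, the share was 94.0 and 85.2 per 100000 in the controls against 111 and 106 in the knockdowns, a ratio of 1.21. These are shares of all circular counts in bulk RNA, in which fewer cells that carry a circle and fewer copies per cell cannot be told apart.

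**Figure D1:**
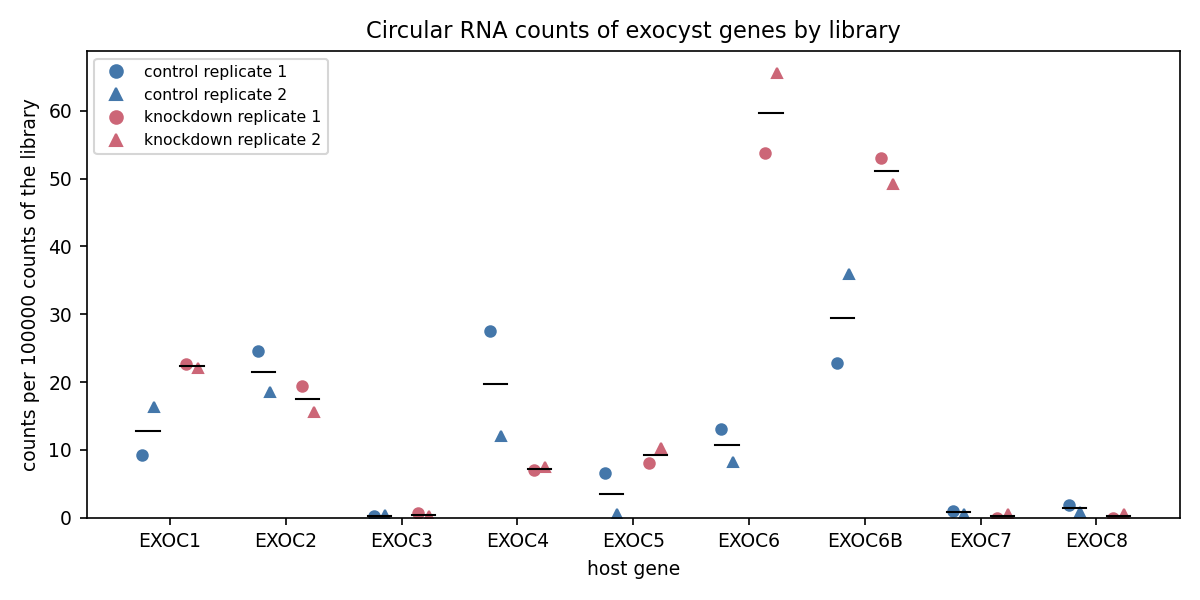
Counts of all exocyst circles of each gene, per 100000 counts of the library, in the 2 control libraries (blue) and the 2 knockdown libraries (red); circles are replicate 1, triangles replicate 2, and bars the group means. EXOC6 rose from 13.1 and 8.26 to 53.8 and 65.5, while EXOC4 was lower in both knockdown libraries and EXOC2 overlapped between groups.

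The test was run on all host genes with at least 10 counts over the 4 libraries, with edgeR's quasi-likelihood test and Benjamini-Hochberg adjustment. EXOC6 was called higher in the knockdown, and the other 7 tested exocyst genes were not called. Over all 8379 tested host genes 0.442% were called, all of them higher in the knockdown. No host gene of any kind was called with the newer dispersion method or when either knockdown library was left out. Of the 8 tested exocyst genes 5 had a positive and 3 a negative log2 fold change, with a median of 0.55. The median over all tested host genes was -0.26, with 3387 positive and 4992 negative. Scaling by library totals in place of TMM moved both medians down, to 0.25 and -0.58. The exocyst median was 1.07 without control replicate 2, 1.08 without knockdown replicate 2 and 1.06 over genes with at least 40 counts. In these settings 7, 7 and 6 exocyst genes were tested, so the set of genes changed as well. It was 0.71 over 6 genes without control replicate 1 and 0.50 over 8 without knockdown replicate 1. EXOC1, EXOC5, EXOC6 and EXOC6B were higher in both knockdown libraries than in either control, which held for 15.3% of all tested host genes. EXOC4, EXOC7 and EXOC8 were lower in both, which held for 36.7%.

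EXOC6 binds the RAB11 GTPase and so links the complex to recycling vesicles. It lies on the plus strand of chromosome 10, at 92826831 to 93059490 (GRCh38.p14), and hosted 78 circles, of which 68 had counts. Its circles had 62 and 46 counts in the controls against 152 and 256 in the knockdowns, with replicate 1 first. The levels were 13.1 and 8.26 per 100000 in the controls against 53.8 and 65.5 in the knockdowns. The gap between the groups was wider than the spread within either of them. The mean rose from 10.7 ± 3.44 (SD, n = 2) to 59.7 ± 8.34 (SD, n = 2), a ratio of 5.58. By edgeR this was a log2 fold change of 2.82 ± 0.37 (SE; adjusted p = 0.0388). The call was lost in 3 settings. The adjusted p was 0.0874 with the newer dispersion method of edgeR, and 0.595 and 0.919 without knockdown replicate 1 and without knockdown replicate 2.

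Most EXOC6 counts summed over the 4 libraries shared 1 back-splice acceptor, at chr10:92893349, 66518 nt inside the gene from its RefSeq start. It closed 13 of the 78 circles and 57.2% of the gene's counts. It was picked as the acceptor with the most summed counts, most of them from the knockdowns. The contrast between the groups at this acceptor is therefore partly set by that choice. The exon that begins there is called exon 1 of the circles below, and the longest of them joins 19 exons. Circles closed at this acceptor had 7 of 62 and 11 of 46 EXOC6 counts in the controls, against 104 of 152 and 173 of 256 in the knockdowns. That is 1.48 and 1.98 per 100000 against 36.8 and 44.3, a ratio of the means of 23.4. All other EXOC6 circles together were at 8.97 ± 3.79 (SD, n = 2) per 100000 in the controls, with the knockdowns at 19.1 ± 3.02 (SD, n = 2), a ratio of 2.13. In edgeR's test of circle use, a test of whether a gene's circles changed in unequal proportion, EXOC6 passed over its 10 tested circles with an adjusted p of 0.0395. Of these circles, 5 had no count in either control and met the filter of 10 counts through the knockdown libraries alone. Unequal use was thus partly set by the filter. This test called 3.67% of the 3347 host genes it ran on, and of the exocyst genes it called EXOC6 and not EXOC1, EXOC2, EXOC4 or EXOC6B, with adjusted p between 0.357 and 0.829 for these. Simes' method over the same circles did not call EXOC6, with an adjusted p of 0.0546, and neither did the F test when knockdown replicate 1 or 2 was left out, at adjusted p of 0.999 and 0.985.

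Within this set, 5 of the 13 circles span 4 to 8 exons and 6 span 12 or more, and the rest lie between. The grouping was chosen after the counts were seen, so its pooled folds are a description. All 13 had 11 counts in control replicate 2, of which those of 12 or more exons had 9. The circles that span 4 to 8 exons had no count in either control. Together they had 0 and 0 counts in the controls against 61 and 115 in the knockdowns, at least 43.5-fold higher against a floor of 3 counts per library. The most abundant joined exons 1 to 7 into a ring of 787 nt (chr10:92893349-92920050), with 0 and 0 counts in the controls against 40 and 63 in the knockdowns. It was at least 25.8-fold higher by the same floor. The circle of exons 1 to 5 (562 nt) had 0 and 0 counts against 12 and 31, at least 10.4-fold higher. Circles that end at exons 4, 6 and 8, of 357, 718 and 871 nt, had 0 counts in both controls and between 2 and 8 in each knockdown library. The depth of the controls allows levels under 0.635 and 0.539 per 100000 for each, so presence below that was not detectable.

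**Figure D2:**
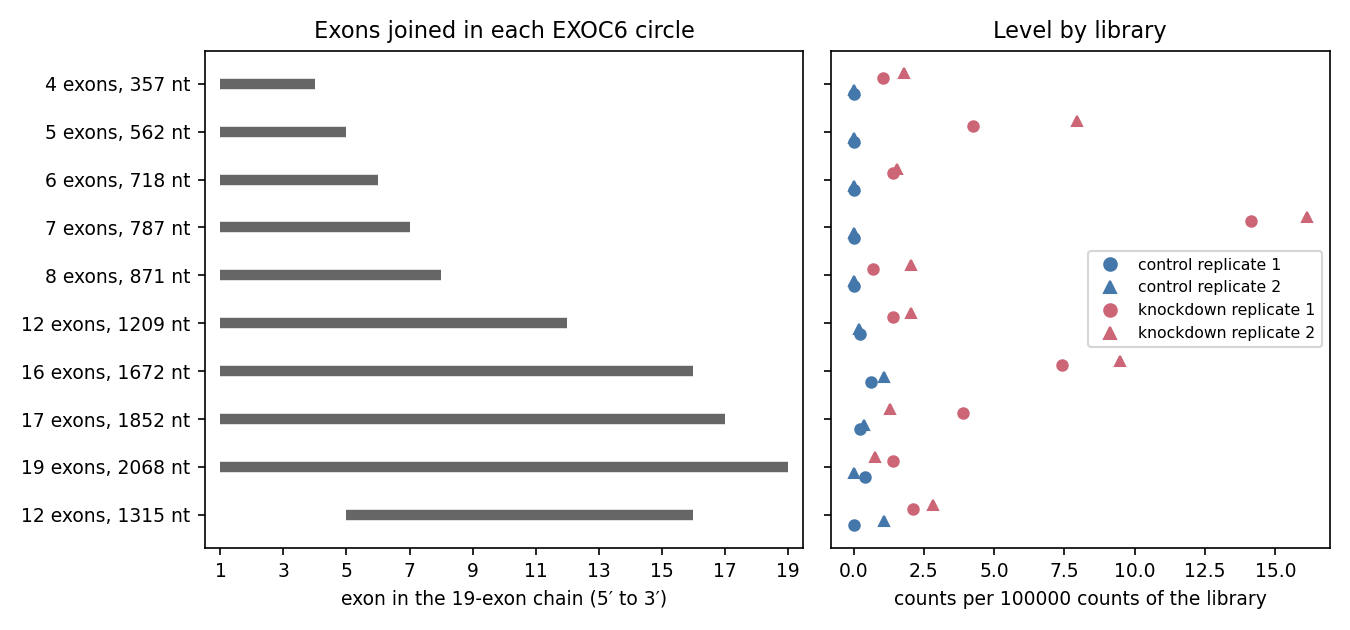
Left, the exons joined in the 10 EXOC6 circles with at least 9 counts that fall on the 19-exon chain, each bar running from its first to its last exon; right, the level of each circle in counts per 100000 counts of the library, with controls in blue and knockdowns in red. The circles of 4 to 8 exons lie at 0 in both controls, and those of 12 or more exons have counts in at least 1 control.

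Longer circles from the same acceptor were present in the controls. Those of 12 or more exons had 7 and 9 counts in the controls against 40 and 55 in the knockdowns. The means were 1.55 ± 0.0957 per 100000 against 14.1 ± 0.0457 (SD, n = 2 each), a ratio of 9.11. The circle of exons 1 to 16 (1672 nt, chr10:92893349-92955714) had 3, 6, 21 and 37 counts in control 1, control 2, knockdown 1 and knockdown 2. edgeR estimated a log2 fold change of 3.22 ± 0.50 (SE; adjusted p = 0.0984) over all circles. The circle of exons 5 to 16 (1315 nt), which uses another acceptor, had 0, 6, 6 and 11 counts in the same order and an adjusted p of 0.437. Intron circles of EXOC6 were highest in control replicate 1: they had 44 and 7 counts in the controls against 10 and 21 in the knockdowns. Of the 44, 24 came from 1 circle (chr10:92944732-92946413) with 0 counts in the other 3 libraries. The share of intron circles over all genes was high in the same library, and its part in this count was not tested.

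EXOC6B, the paralog that can take the place of EXOC6, lies on the minus strand of chromosome 2 at 72175984 to 72826033. Summed over the 4 libraries it had the most circular counts of the exocyst genes, although EXOC6 had more in both knockdown libraries and EXOC2 and EXOC4 more in control replicate 1. There were 66 circles with counts out of 77. The counts were 108, 200, 150 and 192 in control 1, control 2, knockdown 1 and knockdown 2. The levels were 22.9 and 35.9 per 100000 in the controls against 53.1 and 49.2 in the knockdowns, so the groups did not overlap. The mean went from 29.4 ± 9.24 (SD, n = 2) to 51.1 ± 2.75 (SD, n = 2). The log2 fold change of 1.07 ± 0.40 (SE) did not pass, with an adjusted p of 0.304 by edgeR. With a single library dropped, the log2 fold change ran from 0.74 (control 1 dropped) to 1.73 (control 2 dropped). Dropping knockdown 1 or knockdown 2 gave 1.07 and 1.12. Each of these fits leaves a group with a single library, so no adjusted p is given for them here.

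EXOC6B circles were closed at 42 acceptors. The exons of EXOC6B are numbered here from that at chr2:72741304-72741469, and not from the start of the gene. The acceptor of exon 2 had the most counts. This acceptor, at chr2:72733118, had 53 and 108 counts in the controls against 72 and 79 in the knockdowns, or 48.0% of the gene's counts. The circle with the most counts there joined exons 2 to 5 into 390 nt (chr2:72718103-72733118). It had 14, 44, 40 and 49 counts in control 1, control 2, knockdown 1 and knockdown 2, and a log2 fold change of 1.28 ± 0.47 (SE; edgeR, adjusted p = 0.323). Counts are per back splice and not per isoform, and the lengths and exons given are those of the first isoform listed; the EXOC6B circles of 390, 2010 and 556 nt each list 3 isoforms. The circle listed at 2010 nt from the same acceptor (chr2:72731007-72733118) overlapped between the groups, with 37, 50, 29 and 27 counts and a log2 fold change of -0.03 ± 0.40 (SE). The first segment of that isoform, of 1964 nt, at chr2:72731155-72733118, runs through exons 2 and 3, of 48 and 91 nt, and the intron between them, and a 46 nt exon follows. The same 1964 nt segment closed on itself had 12 counts in control replicate 2 and 0 in the other 3 libraries.

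The circle of EXOC6B exons 1 to 5 (556 nt, chr2:72718103-72741469) had 6 and 11 counts in the controls against 20 and 27 in the knockdowns. edgeR estimated a log2 fold change of 2.05 ± 0.45 (SE; adjusted p = 0.153). It passed with DESeq2, at an adjusted p of 0.0233. A circle of 12 exons farther down the gene (1311 nt, chr2:72465160-72575668) had 4 and 17 counts against 25 and 24, with a log2 fold change of 1.90 ± 0.59 (SE; edgeR, adjusted p = 0.253). In both circles the 2 knockdown libraries were higher than the 2 controls, and neither passed in the main test.

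The exons of the paralogs can be set side by side. For EXOC6, 17 exons were taken in order from the first exon of the acceptor set. For EXOC6B the chain was assembled from 2 circles: exons 1 to 5 from that of 556 nt, and the others from that of 12 exons. Whether exons 5 and 6 of EXOC6B are neighbours was not tested. Of the 17 exons, 15 had the same length to the base. The exceptions were exon 1, with 172 nt in EXOC6 and 166 nt in EXOC6B, and exon 6, with 156 and 177 nt. In EXOC6B exon 6 is the first after the join. The acceptors used differed. The exon 1 acceptor had 7, 11, 104 and 173 counts in EXOC6 and 11, 14, 29 and 33 in EXOC6B. At the exon 2 acceptor the order turned, with 1, 0, 0 and 2 counts in EXOC6 and 53, 108, 72 and 79 in EXOC6B. The exon 1 acceptor was thus higher in both knockdown libraries in both genes. Donors are given in the same order of libraries. In EXOC6 the donor of exon 7 had 2, 0, 50 and 81 counts, that of exon 16 had 3, 15, 31 and 64, and that of exon 17 had 2, 7, 20 and 20. Exon 7 thus led in the knockdowns and exon 16 in the controls. In EXOC6B the donor of exon 5 had 24, 60, 62 and 91 counts and that of exon 4 had 40, 51, 36 and 30. How reads that could match either gene were divided was not tested.

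**Figure D3:**
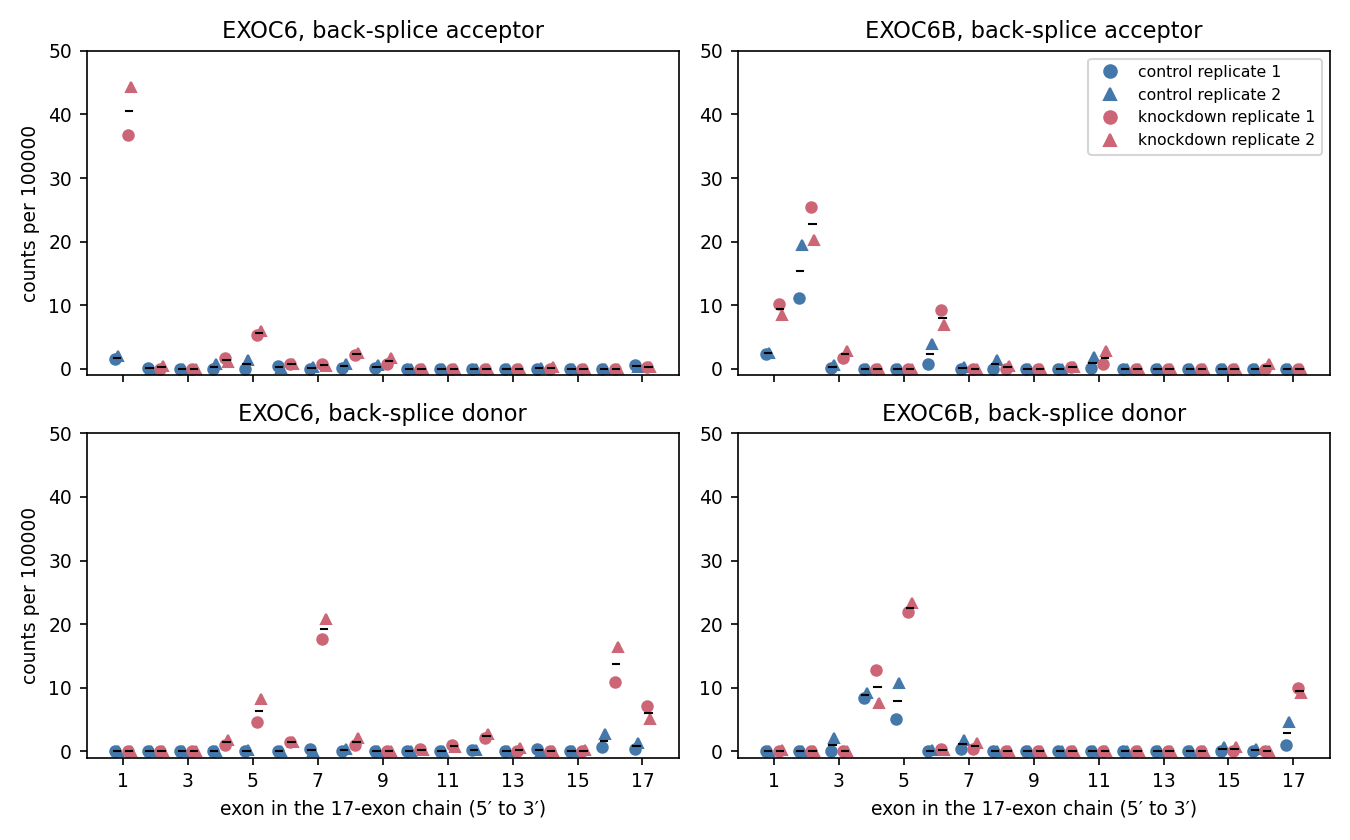
Use of each exon as the back-splice acceptor (top) or donor (bottom) in circles of EXOC6 (left) and EXOC6B (right). Levels are counts per 100000 counts of the library, along the 17 exons set side by side. Points are libraries and bars group means. In EXOC6 the acceptor counts of the knockdown libraries sit at exon 1, and in EXOC6B those of all libraries sit mostly at exons 1, 2 and 6.

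EXOC1 and EXOC7 hold the complex to phosphoinositides of the plasma membrane. EXOC1 (chr4:55853648-55905086, plus strand) hosted 52 circles, 49 with counts. The counts were 44, 91, 64 and 86 in control 1, control 2, knockdown 1 and knockdown 2, or 9.31 and 16.3 per 100000 against 22.6 and 22.0. The groups did not overlap, but the log2 fold change of 1.07 ± 0.42 (SE) did not pass (edgeR, adjusted p = 0.326). The log2 fold change of EXOC1 stayed positive whichever library was dropped. It came to 0.68 for control 1, 1.83 for control 2, 1.10 for knockdown 1 and 1.08 for knockdown 2. No adjusted p is given for these fits here, as each leaves a group with a single library. Of the 52 circles, 34 with 160 counts also named RNU6-652P, a small nuclear RNA pseudogene. The gene's difference lay mostly at 1 donor, chr4:55899884, picked as the EXOC1 donor with the most counts summed over the libraries. Its 7 circles had 1 and 16 counts in the controls against 33 and 40 in the knockdowns. EXOC1 circles closed at any other donor had 43 and 75 against 31 and 46 counts, with means of 11.3 ± 3.09 and 11.4 ± 0.576 per 100000 (SD, n = 2). The circle with the most counts at that donor joined 3 exons (613 nt, chr4:55893552-55899884) and had 0, 10, 15 and 24 counts. Its log2 fold change of 2.61 ± 0.99 (SE) did not pass (edgeR, adjusted p = 0.336). EXOC7 (chr17:76081016-76103787, minus strand) had 5, 3, 0 and 2 counts in 4 circles, and its log2 fold change of -1.09 ± 1.84 (SE) was not called (adjusted p of 0.823 by edgeR). The EXOC7 circle with the most counts, of 682 nt (chr17:76094414-76101863), had 3, 1, 0 and 0.

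EXOC2 and EXOC8 bind active RALA and RALB. EXOC2 (chr6:485154-693139, minus strand) hosted 50 circles, 49 with counts, and its levels overlapped between the groups. Its counts were 116, 103, 55 and 61 in control 1, control 2, knockdown 1 and knockdown 2, or 24.6 and 18.5 per 100000 against 19.5 and 15.6. The log2 fold change of 0.02 ± 0.33 (SE) did not pass (edgeR, adjusted p = 0.979), and it was -0.30 with library-size scaling. The acceptor chr6:637861 closed 39.7% of the gene's counts, with 40 and 39 in the controls against 30 and 24 in the knockdowns. Its circle with the most counts, of 3 exons (465 nt, chr6:629835-637861), had 13, 8, 17 and 10 counts and a log2 fold change of 0.91 ± 0.70 (SE).

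EXOC2 also closed many circles at a donor with an unusual motif. The 2 intron bases that follow a donor are nearly always GT. Of the exocyst circles with counts, 11 (3.30%) had AG-GC at the acceptor and donor, listed with no asterisk, in place of AG-GT, against 0.288% of all circles with a gene that were not antisense. These circles held 5.92% of the exocyst counts and 0.589% of all such counts. These 11 came from 2 donors. A further 9 exocyst circles with 27 counts in all carry AG-GC with an asterisk in the motif field, a mark whose meaning is not given, and were left out of these shares. The EXOC2 donor at chr6:592469 closed 7 circles with 25, 56, 10 and 23 counts in control 1, control 2, knockdown 1 and knockdown 2. Its circle with the most counts joined 7 exons (770 nt, chr6:592469-619543), had 9, 19, 3 and 9 counts, and had a log2 fold change of -0.64 ± 0.64 (SE; edgeR, adjusted p = 0.626). The EXOC5 donor at chr14:57217982 closed 4 circles with 0, 0, 4 and 10. Circles that share a donor are not independent, so the share rests on these 2 sites.

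EXOC8 (chr1:231332753-231337852, minus strand) had circles of 1 segment each. It had 9, 5, 0 and 2 counts in control 1, control 2, knockdown 1 and knockdown 2, in 6 circles with counts. Of the 9 in control replicate 1, 6 came from 1 circle of 2458 nt (chr1:231331833-231334290). The log2 fold change of -1.86 ± 1.61 (SE) did not pass (edgeR, adjusted p = 0.630), and at this depth no difference could be resolved.

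EXOC3 and EXOC4 belong to the core of their subcomplex, and EXOC5 joins EXOC6 to the other one. EXOC3 (chr5:443176-467290, plus strand) had 1, 2, 2 and 1 counts in control 1, control 2, knockdown 1 and knockdown 2 and was not tested. Its circle with the most counts (chr5:456015-456293) had 2, both in knockdown replicate 1. EXOC4 (chr7:133253078-134100951, plus strand) is the longest of the genes, and 49 of its 60 circles were intron circles. It had 130, 67, 20 and 29 counts, or 27.5 and 12 per 100000 in the controls against 7.07 and 7.43 in the knockdowns. Both knockdown libraries were lower, with a log2 fold change of -1.08 ± 0.43 (SE) that did not pass (adjusted p of 0.331 by edgeR). Leaving out control replicate 2 gave -1.34, and leaving out control replicate 1 gave -0.49. With exon circles alone the log2 fold change was -0.50 (edgeR, adjusted p = 0.665). Of the 130 counts in control replicate 1, 105 were from intron circles, which had 37, 12 and 16 counts in the other libraries. Its exon circles had 25 and 30 counts against 8 and 13, or 5.29 and 5.39 per 100000 against 2.83 and 3.33. The EXOC4 circle with the most counts joined 3 exons (1743 nt, chr7:133305877-133317390) and had 13 and 24 counts against 4 and 8, with a log2 fold change of -1.03 ± 0.54 (SE; edgeR, adjusted p = 0.437).

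EXOC5 (chr14:57200507-57268905, minus strand) had 31, 3, 23 and 40 counts in control 1, control 2, knockdown 1 and knockdown 2. The controls were far apart, at 6.56 and 0.539 per 100000, and the knockdowns were at 8.13 and 10.2. The log2 fold change of 1.79 ± 0.81 (SE) did not pass (edgeR, adjusted p = 0.382). Leaving out control replicate 1 brought the log2 fold change to 4.26, and leaving out control replicate 2 brought it to 1.07. Exon circles alone had 10 and 0 counts in the controls against 19 and 34 in the knockdowns. Its circle with the most counts was an intron circle of 1660 nt (chr14:57244422-57246710), with 15 counts in control replicate 1 and 0 in the others.

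Across genes, circular counts are compared per length of the gene, as counts per 100000 per 100 kb of RefSeq span. In the controls EXOC8 and EXOC1 came first, at 27.5 ± 14 and 24.9 ± 9.67 (SD, n = 2), and did not differ beyond their spread. The EXOC8 value rests on 9 and 5 counts over a span of 5.1 kb. EXOC2 followed at 10.4 ± 2.06, and its spread overlapped that of EXOC5. EXOC5, EXOC6, EXOC6B and EXOC7 came next, at 5.19 ± 6.23, 4.60 ± 1.48, 4.52 ± 1.42 and 3.51 ± 1.61, and did not differ beyond their spread. EXOC4 was at 2.33 ± 1.29 and EXOC3 at 1.18 ± 0.433. The spread of EXOC4 overlapped those of EXOC3, EXOC5, EXOC6, EXOC6B and EXOC7. In the knockdowns EXOC1 led at 43.4 ± 0.846 and EXOC6 came second at 25.6 ± 3.58. EXOC5 followed at 13.4 ± 2.18, EXOC2 at 8.43 ± 1.30 and EXOC6B at 7.86 ± 0.423, the last pair within their spread. EXOC8 was at 5.02 ± 7.10, EXOC3 at 2.00 ± 1.32, EXOC7 at 1.12 ± 1.59 and EXOC4 at 0.855 ± 0.0293. These 4 did not differ beyond their spread, and that of EXOC8 also overlapped those of EXOC2, EXOC5 and EXOC6B.

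At the level of single circles, 40 of the 333 exocyst circles with counts had at least 10 counts and were tested; they held 59.3% of the exocyst counts. None was called by edgeR after adjustment, as for 0.0% of the 21576 circles tested over all genes. At an unadjusted p under 0.05 there were 14 of 40, all higher in the knockdown. Over all 21576 tested circles there were 2925 (13.6%) in either direction, of which 2005 were higher. Of the 40, 8 were EXOC6 circles closed at 1 acceptor, and circles that share a site are not independent. DESeq2 called 4 exocyst circles, 3 of EXOC6 and 1 of EXOC6B, against 10.5% of the 10311 circles it gave an adjusted p. Of the 40, 24 had a positive and 16 a negative log2 fold change, with a median of 0.68 against -0.41 over all tested circles. In 19 both knockdown libraries were higher than both controls and in 4 both were lower; over all tested circles these shares were 23.2% and 22.9%. The filter keeps a circle that is high in 1 group only, so the 40 do not stand for all 333. The smallest adjusted p among the 40 was 0.0880, for the EXOC6 circle of exons 1 to 7.

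In structure the exocyst circles were compared with all circles. The median length of those with counts was 1155 nt, against 1344 nt over all 162867 circles with a gene and counts that were not antisense. The median number of exons was 4 in both, and 54.7% and 54.8% were seen in 1 library. Exon circles were 54.7% of the exocyst circles and 67.7% of all. Both knockdown libraries were higher than both controls in every class of exon circle from 2 exons upwards. Exocyst circles of 2 to 5 exons had 33.0 and 37.9 per 100000 in the controls against 65.8 and 65.3 in the knockdowns, a ratio of 1.85. Those of 6 to 11 exons had 12.3 and 25.2 against 43.1 and 48.1, a ratio of 2.44. Those of 12 or more exons had 5.50 and 9.52 against 33.6 and 31.5, a ratio of 4.33. Circles of 1 exon overlapped, at 1.27 and 3.95 against 1.41 and 3.58. None of these classes can pass an exact permutation test with 2 against 2, and the EXOC6 circles lie in all of them except that of 1 exon.

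**Figure D4:**
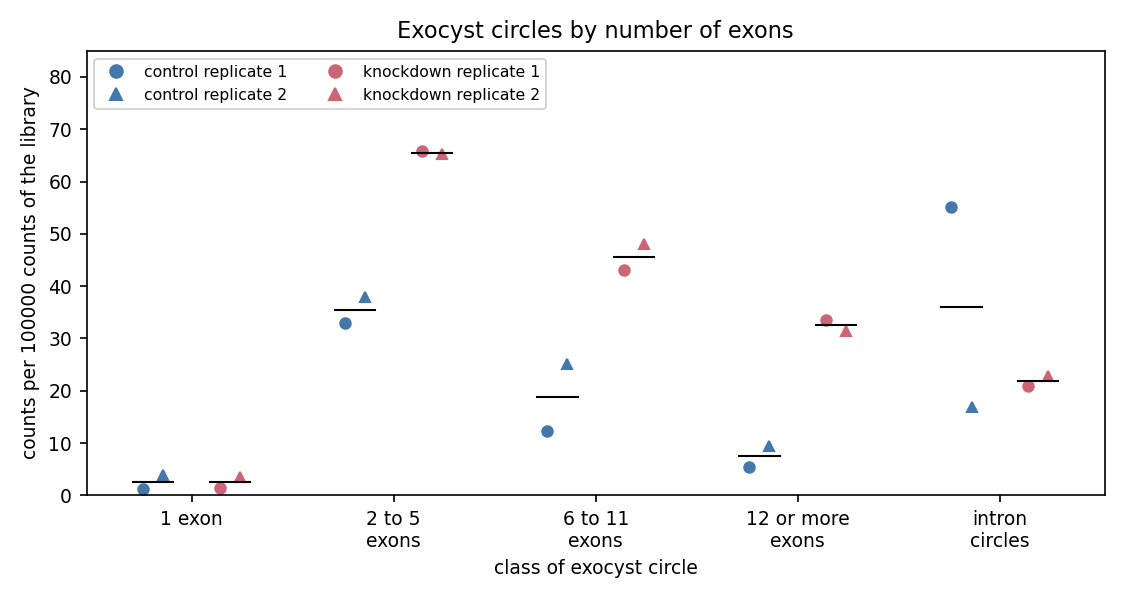
Counts of exon circles of the exocyst genes by number of exons, and of their intron circles, per 100000 counts of the library; blue points are the 2 controls, red points the 2 knockdowns and bars the group means. Both knockdown libraries lie above both controls in the 3 classes from 2 exons upwards, and in the intron class control replicate 1 stands at 55.0 while the other libraries lie between 16.9 and 22.8.

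Genes around the complex were described from lists. Of 40 partners and regulators (RAL, RAB11 and RAB8 GTPases and their regulators, motor proteins and SNAREs), 28 had circular counts and 25 were tested. Over all 8379 tested host genes 0.442% were called, all of them higher. RAB3IP, the exchange factor that activates RAB8 on vesicles and binds EXOC6, was called higher, and none was called lower. Its counts were 34 and 65 in the controls against 246 and 367 in the knockdowns, a mean of 9.44 ± 3.17 against 90.5 ± 4.92 per 100000 (SD, n = 2). By edgeR this was a log2 fold change of 3.53 ± 0.44 (SE; adjusted p = 0.0388). Of the 25, 8 were positive and 17 negative, with a median of -0.43, against -0.26 over all tested host genes. Of 16 genes of the related COG, GARP, EARP and NRZ tethering complexes 12 were tested, and VPS50, a subunit of EARP at recycling endosomes, was called higher. Its counts were 16 and 41 against 177 and 244, with a log2 fold change of 3.79 ± 0.49 (SE; edgeR, adjusted p = 0.0388). The 12 had a median of 0.45, with 7 positive and 5 negative. Like every host gene, RAB3IP and VPS50 were not called with the newer dispersion method or when either knockdown library was left out. Of 5 exocyst-like paralogs that are not subunits 1 had counts, and it was not tested.

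**Figure D5:**
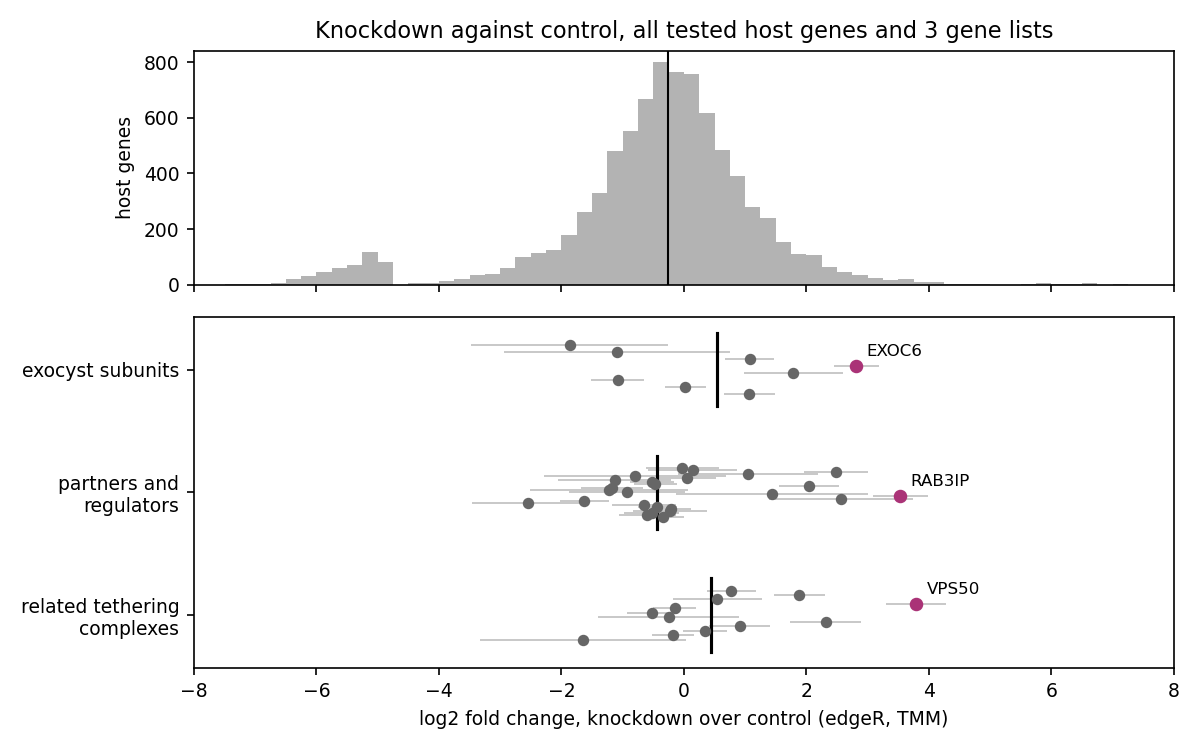
Top, the log2 fold change (knockdown over control, edgeR with TMM) of all 8379 tested host genes, with their median as a line at -0.26; bottom, the tested genes of 3 lists with their standard errors and the list median as a bar. EXOC6, RAB3IP and VPS50, in magenta, are the genes of these lists with an adjusted p of at most 0.05.

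The host gene most like EXOC6B, the exocyst gene with the largest sum of counts over the 4 libraries, was sought among 4763 genes with at least 40 counts. Likeness was the root mean square difference of log2(counts per 100000 + 0.5), centred over the 4 libraries. The 5 closest were ENSG00000278886 (0.0424), GCC2 (0.050), DPY19L4 (0.0504), UBE3A (0.0521) and EXOC1 (0.0550). GCC2, a tether of the trans-Golgi network, had 106, 190, 141 and 171 counts in control 1, control 2, knockdown 1 and knockdown 2. EXOC6 ranked 3252. With 4 libraries many genes share a pattern, so these names are a description.

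The labelled cell type was checked against circles of marker genes. Of 8 epithelial markers 5 had circular counts, while KRT8, KRT18 and KRT19 had none; their sum was 35.6 and 18.7 per 100000 in the controls against 12.7 and 12 in the knockdowns. EGFR, known to be abundant in this line, had 115, 52, 12 and 21 counts in control 1, control 2, knockdown 1 and knockdown 2. Of the hormone receptor genes PGR had 0, and ESR1 and ERBB2 together were at most 2.96 per 100000. ESR1 had 13, 5, 3 and 1 counts in the same order. In control replicate 1 the epithelial marker CDH1 also had 13. Of 5 blood and stroma markers FAP had 4 counts in control replicate 1, and PTPRC, PECAM1, COL1A1 and COL1A2 had 0. A circle's level need not follow its gene's mRNA, so a marker without circles does not speak against the label.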

How the data were processed

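Circular RNA was measured by Induro-mediated nanopore sequencing of total RNA: random-primed cDNA made around the circle was amplified with phi29 polymerase, per the labels' protocols. The authors deposited raw counts, whole numbers per back-splice position, which were not normalized. CIRI-long is named as the caller in every row, per the file's own columns, and its version is not given in the sources used here; GRCh38.p14 and DESeq2 are named in the submitters' processing notes. A second deposited table, scaled so that each of its 4 sample columns sums to 100000, was not used. Groups came from the sample titles, and columns were matched through the library names in the labels. Whether replicates differ by culture or by extract is not stated beyond "biological", so p-values measure the spread between these samples.

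Counts per 100000 were computed from library totals. Tests were run on the whole table with edgeR 4.0.16 (R 4.3.3): TMM, glmQLFit with default dispersion, glmQLFTest, at least 10 counts over the 4 libraries and an adjusted p of 0.05. Host genes were sums of circles that were not antisense, counted for every gene named; 43 exocyst circles (188 counts) named a further gene. Circle use was tested with diffSpliceDGE (F test per gene). Standard errors were derived from the F statistic. Alternatives used DESeq2 1.42.0 and limma 3.58.1. The fits were tested on simulated data. Positions were taken from the counts table and are counted from 1 with both ends included; gene spans are RefSeq's. In the motif, letters are the intron bases at the acceptor and the donor.

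The genes, lists and tests were chosen with earlier results of these data known. Named circles were each gene's circle with the most counts, those with at least 40 counts, and the 3 higher and 3 lower with the smallest p. Other circles and sites were singled out after their values were seen. Replicate numbers were not treated as pairs in the main test. Deviations of same-numbered samples correlated at 0.0706 over 4944 circles, and 2 pairs cannot decide whether samples were paired.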

Additional observations from a re-analysis of the deposited data

How the results depend on the processing

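Exocyst circles tested numbered 40 of the 21576 over all genes in the main test. They numbered 11 of 4944 with at least 40 counts and 19 of 11711 with at least 5 counts in 2 libraries. With exon circles alone they numbered 33 of 17790, and without a filter 333 of 190152. The number of exocyst circles called was 0 in the main test, with voom, with DESeq2 size factors, with library-size scaling and with the newer dispersion method. It was 4 with DESeq2, 4 with at least 40 counts, 4 with at least 5 counts in 2 libraries, 3 with exon circles alone, 3 without a filter, 7 with the replicate block (6 of them higher) and 0 to 18 when 1 library was left out. EXOC6 circles of exons 1 to 7, 1 to 5 and 1 to 16 were called in each of these 6 settings that used all 4 libraries. The number of exocyst host genes called was 1 in the main test, 0 with the newer dispersion method and 0 to 5 when 1 library was left out; it was 0 when either knockdown library was left out. Circle use called 1 exocyst gene, 2 with the replicate block, 0 with Simes' method and 0 to 4 when 1 library was left out. The difference in the exocyst share was 67.8 per 100000, 81.9 with exon circles alone, 88.9 with exon circles as the denominator, 57.7 and 77.9 within the libraries numbered 1 and 2 (replicate block), and 61.0 to 74.6 when 1 library was left out. Over all genes, 0 circles were called in the main test (2925 at an unadjusted p under 0.05), 1085 with DESeq2, 562 with at least 40 counts, 1422 with at least 5 counts in 2 libraries, 302 with exon circles alone, 471 without a filter, 1620 with the replicate block, 296 with voom and 0 to 6421 when 1 library was left out. Host genes called numbered 37, and in the same order 184, 108, 116, 81, 369, 300, 403 and 0 to 2775, with 60 for DESeq2 size factors, 89 for circles that name 1 gene and 0 for the newer dispersion method. Circle use called 123 genes, 687 with the replicate block, 51 with Simes' method and 1 to 1239 when 1 library was left out. A control left alone is assumed to vary like the knockdown pair. The median log2 fold change of the exocyst host genes (0.55) ran from 0.25 to 1.09 over all settings. The log2 fold change of EXOC2 (0.02) turned to -0.014 with at least 40 counts, -0.00083 with circles that name 1 gene, -0.30 with library-size scaling and -0.039 without a filter, with a range of -0.082 to 0.16 when 1 library was left out. That of the EXOC6B circle of 2010 nt (-0.03) turned to 0.0045 with DESeq2, 0.0051 with DESeq2 size factors, 0.047 with at least 40 counts and 0.021 with library-size scaling, with a range of -0.16 to 0.33 when 1 library was left out. The cause of these changes was not tested. The mean chi-square between replicates was 18.0 for the controls and 2.28 for the knockdowns over circles with at least 40 counts, and the common dispersion covers both.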
